A study of Mus musculus with 34 samples.

Results

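Hepatocellular carcinomas (HCC) that arose in mice after low-LET irradiation were set against HCC that arose in unirradiated mice, with no normal liver in the fit. Low-LET (low linear energy transfer) radiation is sparsely ionizing radiation such as γ-rays. The members were the arrays labeled with HCC pathology and either low-LET or no radiation, which gave 7 of the 34 arrays of the series, 3 low-LET HCC and 4 spontaneous HCC. All mice were male C3H/HeNCrl, an inbred strain in which liver tumors are common. Low-LET HCC 1 and 2 came from mice given 2 Gy and low-LET HCC 3 from a mouse given 3 Gy, each as a single whole-body exposure to cesium γ-rays, whereas mice with spontaneous HCC were sham-irradiated. Animals were killed when moribund, when showing signs of tumors, or at a fixed final age, and the age of each mouse at collection was not given in the sources used here. Other arrays were used as a measure of scale. They were 4 non-HCC livers of low-LET-irradiated mice, labeled with doses of 7, 5, 3 and 6 Gy, and 6 livers of sham-irradiated mice. A further 7 were HCC of mice given high-LET iron or silicon ions at 0.1 to 1 Gy. The remaining 10 arrays, non-HCC livers of high-LET-irradiated mice labeled with 1 Gy, entered the normalization and the fits of all 34 arrays. The labels of 3 of these low-LET livers give doses above those of all low-LET HCC. Such doses are also above the γ-ray range in the study's methods, and this difference between the sources was not resolved. Total RNA was hybridized to Illumina mouse BeadChips, and each value below is a background-corrected, quantile-normalized log2 intensity of 1 probe.

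HCC is a cancer of hepatocytes, the parenchymal cells that make plasma proteins, clear drugs and hormones, and run the urea cycle. In mice many hepatocyte genes are sex-biased: the pulsed growth hormone secretion of males, read through the transcription factor STAT5, keeps male-biased genes such as the major urinary proteins (Mup) on and female-biased genes such as Cux2 off. Tumors often lose these adult programs and regain fetal genes such as Gpc3, Afp and the imprinted growth factor Igf2.

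Between 22639 and 25860 probes stood above background in the 7 tumors, 23735 to 25860 in low-LET HCC and 22639 to 24884 in spontaneous HCC. The label of tumor and tissue was checked first against marker genes. The hepatocyte markers averaged 12.36 to 12.56 (log2) in low-LET HCC and 12.25 to 12.44 in spontaneous HCC, and 7 of 8 of them were above background in all 7 tumors. Gpc3, a glypican of fetal liver and HCC, read 11.81, 12.85 and 11.74 in low-LET HCC and 13.42, 12.76, 12.87 and 12.67 in spontaneous HCC, against a mean of 6.35 in sham livers. Among the other cell types, macrophage markers averaged 7.18 to 8.68 in low-LET HCC and 6.84 to 8.74 in spontaneous HCC, with all 4 above background in every tumor. The 3 B and plasma cell markers averaged 6.05 to 6.11 in low-LET HCC and 6.15 to 6.36 in spontaneous HCC, close to the background limit of 6.01 to 6.07. This was the only one of 10 marker lists whose groups did not overlap (two-sided exact permutation p = 0.0571, the smallest that 35 assignments allow). Over the wider list of 8 B and plasma cell genes the groups overlapped, at means of 6.15 to 6.21 in low-LET HCC and 6.12 to 6.56 in spontaneous HCC (two-sided exact permutation p = 0.743). The exact p of the other 9 marker lists ran between 0.114 and 0.914. Epcam of the cholangiocyte markers and Plin1 of the adipocyte markers were above background in none of the 7 tumors. In bulk tissue, fewer cells of a type and less RNA per cell cannot be told apart.

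No probe passed the test between low-LET HCC and spontaneous HCC. With limma on the 7 tumors, 0 of 25741 probes (0%) reached an adjusted p under 0.1 with a fold change above 1.3, and the smallest adjusted p was 0.31. An ordinary linear model also called 0 probes, and the deposited normalized values gave 2. At an unadjusted p under 0.05 there were 938 probes (3.64%), of which 498 were higher and 440 lower in low-LET HCC, and the ordinary linear model gave 1089. Every low-LET HCC lay above every spontaneous HCC for 599 probes (2.33%) and below for 586 probes (2.28%). With 1 probe per gene, the same counts were 295 of 13048 genes (2.26%) above and 334 (2.56%) below. These percentages are the background against which counts in gene groups are read.

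The differences were small for most probes. The median absolute difference was 0.08 on the log2 scale, and 94 probes (0.365%) differed by more than 1. The 95% interval of the difference had a median half-width of 0.283. It lay inside a 2-fold range for 23098 probes (89.7%) and inside a 1.3-fold range for 12626 (49.1%), and for the other probes the interval still held a 1.3-fold difference in at least 1 direction. BeadChips are a further limit, since the low-LET HCC were on chips 2, 3 and 4 and the spontaneous HCC on chips 1, 6 and 7, so that within these 7 arrays BeadChip and group cannot be told apart.

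The same test called many probes where tumor was set against liver. Low-LET HCC against low-LET non-HCC liver, with 3 against 4 arrays, gave 2815 of 25656 probes (11%), 1340 higher and 1475 lower in the tumors. Spontaneous HCC against sham liver gave 4963 of 26749 (18.6%), 2502 higher and 2461 lower. Low-LET non-HCC liver against sham liver gave 0 of 26358 (0%) by limma, with 1879 probes at an unadjusted p under 0.05, a smallest adjusted p of 0.19 and 2 calls from the deposited values. The comparison between the tumors thus gave no call with 3 against 4 arrays, the group size that gave 2815 calls between tumor and liver.

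The tumors did not separate by group over all probes. The mean correlation over the 25741 probes was 0.951 within low-LET HCC (3 pairs), 0.974 within spontaneous HCC (6 pairs) and 0.966 between them (12 pairs). The mean correlation within groups exceeded that between groups by 0.000318, which was not larger than other divisions of the tumors gave (one-sided exact permutation p = 0.343, smallest possible 0.0286). Low-LET HCC 3 stood apart, at 63.91 on a first principal component that held 47.1% of the variance and on which the other 6 tumors ran between -32.71 and 21.61. It was the tumor of the 3 Gy mouse.

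**Figure D1:**
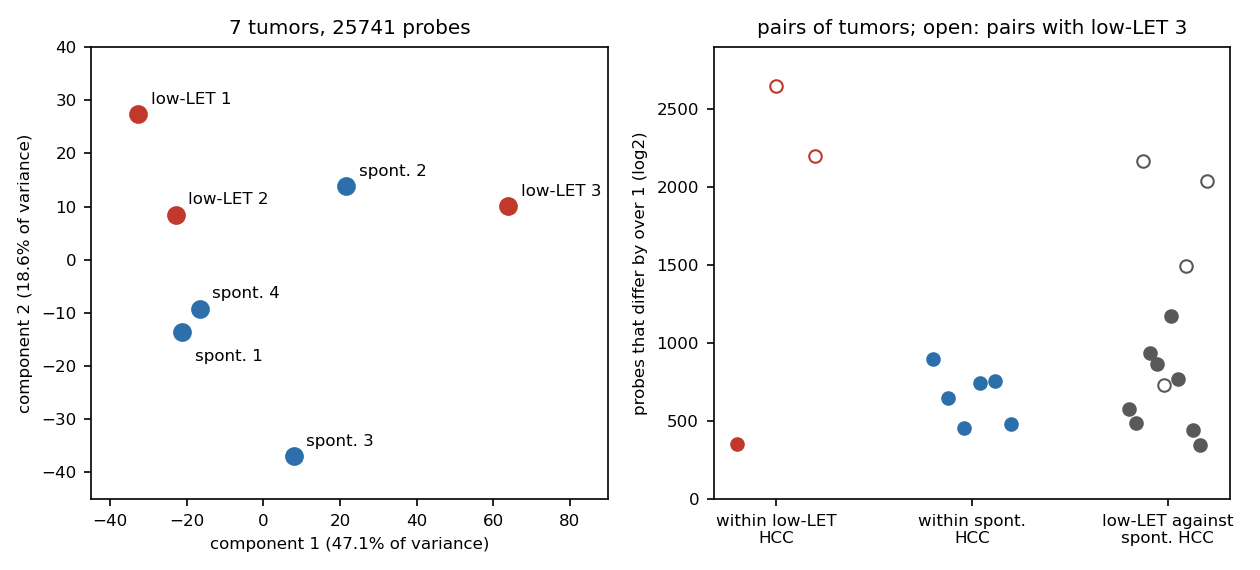
Left, the 7 tumors on the first and second principal components of 25741 probes (47.1% and 18.6% of the variance), with low-LET HCC in red and spontaneous HCC in blue. Right, the number of probes that differ by more than 1 (log2) for each pair of tumors, with open circles for pairs that include low-LET HCC 3; low-LET HCC 1 and 2 differ at 353 probes and low-LET HCC 3 differs from them at 2649 and 2198.

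Counted in probes, low-LET HCC 1 and 2 differed from each other by more than 1 (log2) at 353 probes (1.37%), fewer than any of the 6 pairs of spontaneous HCC (457 to 899). Low-LET HCC 3 differed from the other low-LET HCC at 2649 and 2198 probes. Pairs of a low-LET and a spontaneous HCC differed at 346 to 2166 probes, or 346 to 1173 without low-LET HCC 3. In low-LET HCC 3, 123 probes lay more than 1 above and 147 more than 1 below all 6 other tumors. The genes in which single tumors stood farthest apart were read off after their values were seen. In low-LET HCC 3, Cps1, the entry enzyme of the urea cycle, read 9.82 against 12.13 to 12.93 in the others, and Plg, which encodes plasminogen, read 8.28 against 10.69 to 12.16. Cyp3a11, a drug-metabolizing cytochrome P450, read 9.28 against 11.93 to 13.28. The heat shock gene Hspa1a read 9.02 against 5.85 to 6.51 and the stress-induced transcription factor Atf3 10.13 against 6.73 to 7.82. Leaving out low-LET HCC 3 raised the probes at an unadjusted p under 0.05 to 2613, again with 0 calls.

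Among single probes, the smallest p belonged to Gjb2, which encodes connexin 26, a gap junction protein of hepatocytes. Gjb2 read 9.28, 9.04 and 9.06 in low-LET HCC and 8.23, 8.09, 8.13 and 8.27 in spontaneous HCC, against 9.65 ± 0.37 in sham livers (SD, n = 6). The difference was 0.95 ± 0.09 (SE; 95% interval 0.73 to 1.16) with an adjusted p of 0.31. On this probe the groups were well apart, with the low-LET HCC on the side of sham liver. On another Gjb2 probe the difference was smaller, at 0.54 ± 0.10 (SE). That value is from a fit of the 17 low-LET and non-irradiated arrays, livers included, which called the probe (adjusted p = 0.0925). A second gene of this kind was Abcd3, a transporter of the peroxisomal membrane, at 7.57, 7.67 and 7.85 in low-LET HCC and 6.83, 6.82, 6.53 and 6.75 in spontaneous HCC (difference 0.96 ± 0.11, adjusted p = 0.42). With BeadChip as a fixed block in a fit of all 14 HCC, where high-LET HCC join the chips, both differences turned to -0.14 for Gjb2 and -0.18 for Abcd3.

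The other genes with the smallest p on the higher side were Vps29, a retromer subunit of endosomal sorting, Abhd17c, a depalmitoylase, Mup2, Muc1, a mucin of ductal epithelia, Tor1a, an ATPase of the endoplasmic reticulum, Atp5a1, Cldn12, a claudin, and Vapa, a tether of the endoplasmic reticulum. Outside Mup2 their differences lay between 0.45 for Tor1a and 0.86 for Atp5a1, and each had all low-LET HCC above all spontaneous HCC. Muc1 read 6.39, 6.62 and 6.59 in low-LET HCC and 6.05, 6.04, 5.94 and 5.97 in spontaneous HCC, where 2 of 4 arrays were above background. Cldn12 read 9.47, 9.54 and 9.56 in low-LET HCC and 9.07, 9.15, 8.998 and 8.86 in spontaneous HCC, a difference of 0.50 ± 0.08. These 2 genes kept their direction with BeadChip as a block, while Vps29 (-0.16), Abhd17c (-0.03) and Tor1a (-0.12) turned in the fit of 14 HCC, and Vapa was at -0.0015 in the blocked fit of all 34 arrays.

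**Figure D2:**
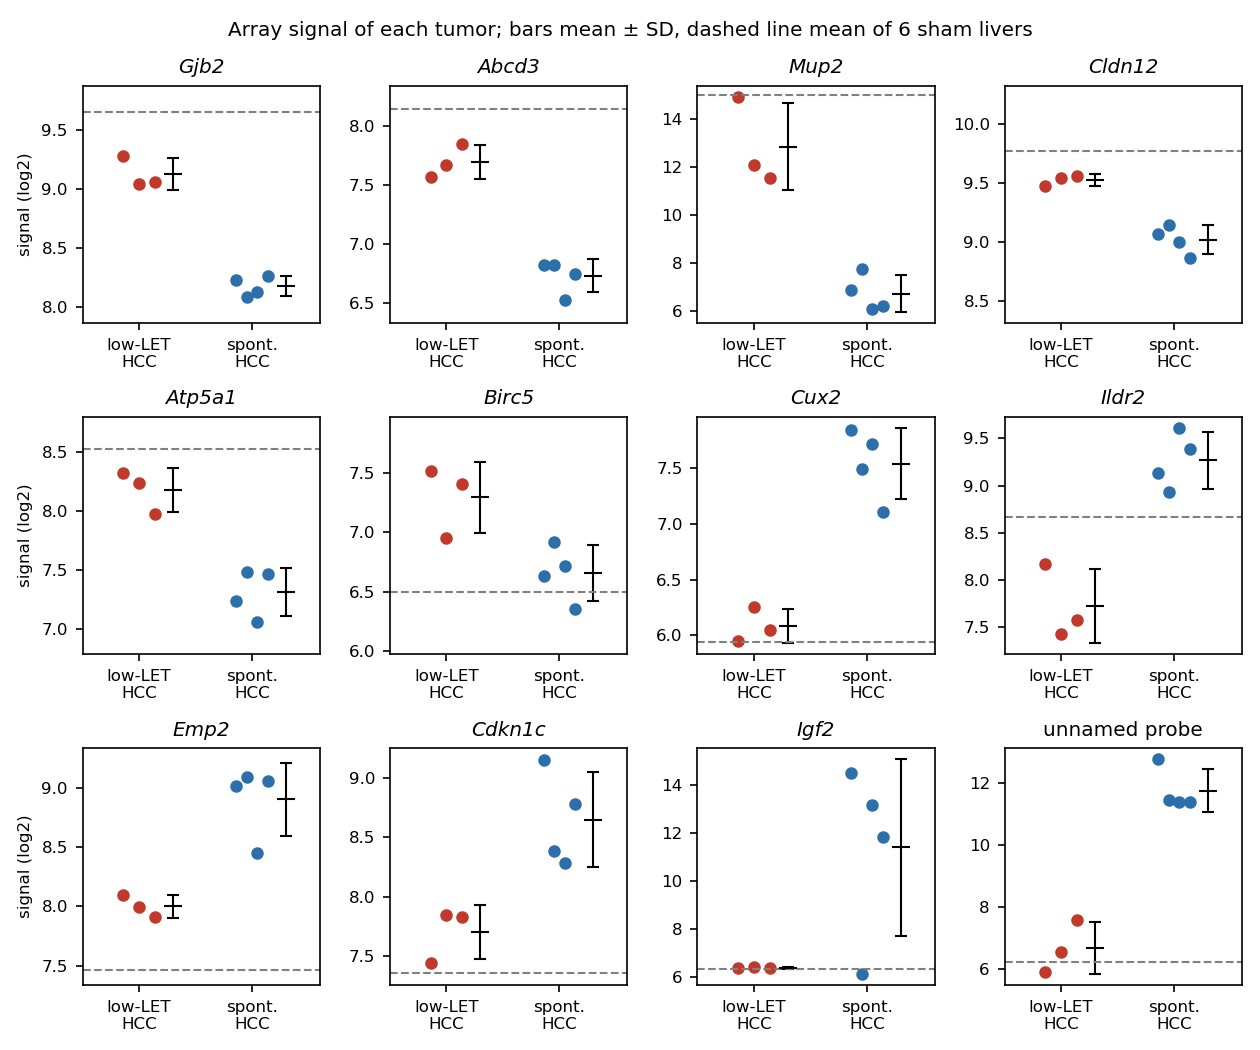
Log2 signal of 12 probes in each low-LET HCC (red, n = 3) and spontaneous HCC (blue, n = 4), with mean ± SD beside the points and a dashed line at the mean of 6 sham livers. The groups do not overlap in 11 of the 12; for Igf2, spontaneous HCC 2 at 6.13 lies with the low-LET HCC.

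On the lower side, the largest of the leading differences was in a probe with no gene name in the annotation used, ILMN_1251419. It read 5.91, 6.55 and 7.59 in low-LET HCC, with 2 of 3 arrays above background, and 12.77, 11.45, 11.37 and 11.37 in spontaneous HCC, against 6.23 ± 0.64 in sham livers (SD, n = 6). The difference was -5.06 ± 0.50 (95% interval -6.25 to -3.87, adjusted p = 0.31). High-LET HCC ran between 5.85 and 11.70 at this probe, so that it spanned the gap between the other tumor groups. Ildr2, a membrane protein of hepatocyte lipid handling in mice, read 8.18, 7.43 and 7.58 in low-LET HCC and 9.14, 8.93, 9.61 and 9.39 in spontaneous HCC (difference -1.54 ± 0.23, adjusted p = 0.81). It turned to 0.17 with BeadChip as a block in the 14 HCC but kept its direction with that block in all 34 arrays. Emp2, a tetraspan membrane protein, read 8.10, 7.99 and 7.91 in low-LET HCC and 9.02, 9.09, 8.45 and 9.05 in spontaneous HCC (difference -0.90 ± 0.17). Emp2 did not pass in the 7 tumors (adjusted p = 1.00) but was called in the fit of all 34 arrays with BeadChip as a fixed block (-1.19, adjusted p = 0.061).

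The remaining genes with the smallest p on the lower side were Gstp3, a glutathione transferase (-1.04), Akr1b10, an aldo-keto reductase (-0.70), Smim26, a small mitochondrial protein (-0.41), Mzt2, a γ-tubulin complex protein (-0.41), Ebi3, a cytokine subunit (-0.39), and the ribosomal protein genes Rps24 (-0.32) and Rps2 (-0.31). In each of them all low-LET HCC lay below all spontaneous HCC. Akr1b10 read 7.78, 8.41 and 8.07 in low-LET HCC and 8.80, 8.92, 8.70 and 8.74 in spontaneous HCC, against a mean of 7.13 in sham livers. All of these kept their direction under every alternative run. None passed the test in the 7 tumors, while the fit of the 17 low-LET and non-irradiated arrays called Mzt2 (adjusted p = 0.0384) and Akr1b10 (adjusted p = 0.068).

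Of the 51 gene lists, male-biased liver genes had the largest median difference. Of 25 male-biased liver genes, 23 were on the array and 20 passed the filter on low values. In 10 of these 20 (50%) every low-LET HCC lay above every spontaneous HCC and in 0 below, beside 2.26% and 2.56% of all genes. The list had 17 positive differences, 11 at an unadjusted p under 0.05, and a median of 0.75 beside -0.01 over all genes with 1 probe each. No member passed the adjusted test. Against their livers, the median of the list was -2.26 in low-LET HCC against low-LET non-HCC liver and -3.16 in spontaneous HCC against sham liver, so both kinds of tumor stood below normal liver. The list was chosen with earlier results of these data known and is a description of them. Its median ran between -0.36, with BeadChip as a fixed block in the 14 HCC, and 1.26 over the alternatives.

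The list's largest difference was that of Cyp4a12a, and Mup21, Mup20 and Mup6 had the next smallest p. Mup2 was not on the list but was 1 of the genes with the smallest p of all. Mup genes encode major urinary proteins, pheromone carriers that the male mouse liver secretes in large amounts. Mup2 read 14.94, 12.08 and 11.54 in low-LET HCC and 6.88, 7.74, 6.07 and 6.19 in spontaneous HCC, against 15.02 ± 0.12 in sham livers (SD, n = 6). On this probe low-LET HCC 1 was at the level of normal liver, the other low-LET HCC were lower, and the spontaneous HCC were lower still. On the second Mup2 probe the signal was 12.60, 9.41 and 9.88 in low-LET HCC and 6.16, 6.36, 6.19 and 6.18 in spontaneous HCC, against 14.22 to 14.71 in sham livers, so there every low-LET HCC lay below every sham liver. The difference on the first probe was 6.14 ± 0.85 (95% interval 4.11 to 8.17, adjusted p = 0.67), and high-LET HCC covered the whole span, between 6.22 and 15.20. Mup21 read 10.87, 9.88 and 11.24 in low-LET HCC and 7.54, 9.07, 8.36 and 8.82 in spontaneous HCC, a difference of 2.21 ± 0.45. Mup6 read 11.23, 8.41 and 8.30 in low-LET HCC and 6.41, 6.56, 6.32 and 6.45 in spontaneous HCC. In Mup20, the darcin gene, low-LET HCC read 8.004, 6.76 and 7.84 and spontaneous HCC 5.99, 6.15, 6.16 and 6.51, with 3 of the 4 above background, and the difference of 1.33 turned to -0.68 with BeadChip as a block in the 14 HCC. Mup3 overlapped between groups through spontaneous HCC 2 at 13.13. Mup genes are related members of a single family, so a probe may read several of them and the members cannot be counted as separate measurements.

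Part of the start region is shared among these Mup genes. The 250 bases before the start of Mup2 (chr4:60139857-60140106, minus strand) and Mup6 (chr4:60003231-60003480, plus strand) are printed 5′ to 3′ from RefSeq promoters of GRCm38.p6, with capitals on a run of 15 bases that Mup2, Mup3, Mup6 and Mup21 share.
Mup2: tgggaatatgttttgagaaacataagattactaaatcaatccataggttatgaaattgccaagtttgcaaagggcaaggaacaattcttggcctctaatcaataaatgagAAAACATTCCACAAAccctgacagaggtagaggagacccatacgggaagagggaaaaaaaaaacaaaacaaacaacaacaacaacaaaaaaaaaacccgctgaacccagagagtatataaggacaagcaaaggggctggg
Mup6: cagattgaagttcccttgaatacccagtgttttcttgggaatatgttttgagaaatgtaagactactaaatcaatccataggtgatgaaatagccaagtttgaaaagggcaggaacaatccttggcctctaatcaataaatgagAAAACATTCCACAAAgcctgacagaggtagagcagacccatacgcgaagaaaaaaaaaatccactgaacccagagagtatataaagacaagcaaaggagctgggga
That run, AAAACATTCCACAAA, occurred in the same window of 11 genes (0.0407% of all genes with a promoter), all 11 of them Mup genes. The STAT5 motif TTCNNNGAA, searched on both strands, was found in 2 of 14 male-biased genes with a promoter (14.3%), Bcl6 and C8a, in 2 of 11 female-biased genes (18.2%) and in 8.13% of all genes.

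Outside the Mup family, Cyp4a12a, a male-specific fatty acid hydroxylase, read 11.11, 7.91 and 9.27 in low-LET HCC and 5.98, 6.40, 5.97 and 6.10 in spontaneous HCC, where 2 of 4 arrays were above background (difference 3.32 ± 0.68). It turned to -0.37 with BeadChip as a block in the 14 HCC. Hsd3b5, a male-specific steroid dehydrogenase, read 9.86, 6.81 and 6.79 in low-LET HCC and 6.19, 6.14, 5.95 and 5.87 in spontaneous HCC. Nudt7, a peroxisomal coenzyme A hydrolase, read 12.99, 11.58 and 11.74 in low-LET HCC and 10.36, 11.09, 10.32 and 10.89 in spontaneous HCC (difference 1.44 ± 0.38). Low-LET HCC 1 was the highest tumor in each of these and in Mup2 and Mup6. C8a, a subunit of the terminal complement complex, read 9.58, 9.49 and 9.99 in low-LET HCC and 8.29, 9.41, 8.20 and 8.53 in spontaneous HCC. Bcl6, a repressor of female-biased genes, overlapped at 7.39, 6.92 and 8.23 in low-LET HCC and 6.95, 7.25, 7.00 and 7.72 in spontaneous HCC.

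**Figure D3:**
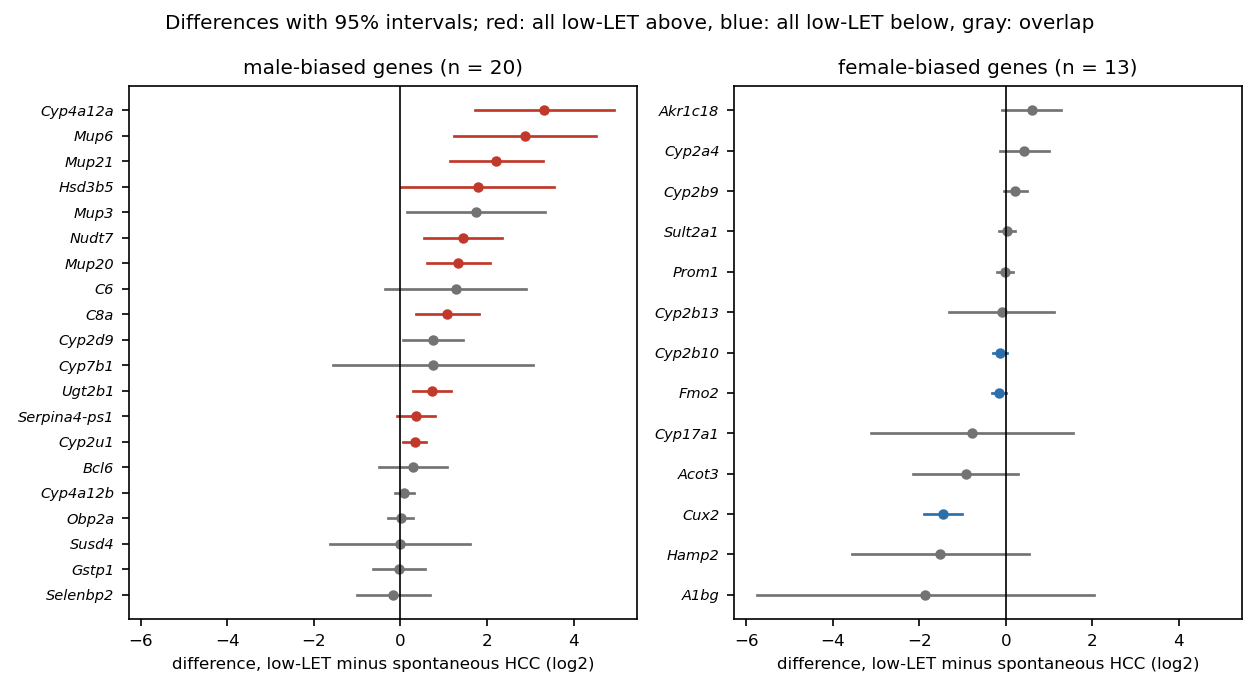
Difference of low-LET HCC minus spontaneous HCC (log2, points, with 95% intervals of the limma fit) for 20 male-biased and 13 female-biased liver genes, with red where every low-LET HCC lies above and blue where every one lies below the spontaneous HCC. The 10 red genes are male-biased and the 3 blue ones female-biased, with Cux2 at -1.45.

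Of the female-biased genes, 13 passed the filter. In 3 of them (23.1%) every low-LET HCC lay below every spontaneous HCC and in 0 above, beside 2.56% and 2.26% of all genes. The median was -0.13 and ran between -0.61, with the deposited values, and 0.06, with BeadChip as a fixed block in the 14 HCC. The lower genes were Cux2, Fmo2 (-0.15) and Cyp2b10 (-0.13). Fmo2 read 6.21 to 6.25 in low-LET HCC and 6.29 to 6.49 in spontaneous HCC, with a background limit of 6.01 to 6.07. Cux2 encodes a homeodomain factor that in female mouse liver represses male-biased genes. It read 5.95, 6.26 and 6.05 in low-LET HCC, with 2 of 3 arrays above background, and 7.84, 7.49, 7.71 and 7.11 in spontaneous HCC, against 5.94 ± 0.06 in sham livers (SD, n = 6). The sham livers ran between 5.87 and 6.02, with 0 of 6 above background. Low-LET HCC 1 lay within that range and low-LET HCC 2 and 3 above it. Each spontaneous HCC lay above all low-LET HCC. The difference was -1.45 ± 0.18 (95% interval -1.89 to -1.02, adjusted p = 0.65), and high-LET HCC ran between 6.14 and 9.31. With BeadChip as a fixed block in the 14 HCC it turned to 0.92.

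The 250 bases before the second annotated start of Cux2 (chr5:122047826-122048075, minus strand, GRCm38.p6, RefSeq) are shown because this gene carried the clearest difference among the female-biased genes. Capitals mark ATCGAT, a site type of CUT homeodomain factors, 72 bases before the start.
Cux2: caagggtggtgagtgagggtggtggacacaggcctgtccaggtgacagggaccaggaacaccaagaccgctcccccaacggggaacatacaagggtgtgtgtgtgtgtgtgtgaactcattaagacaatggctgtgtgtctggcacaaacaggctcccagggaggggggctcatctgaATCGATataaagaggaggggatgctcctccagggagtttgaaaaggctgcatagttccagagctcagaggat
ATCGAT was present before the start of 1 of 11 female-biased genes (9.09%), 0 of 14 male-biased genes and 0.836% of all genes. A match of letters is a description of the sequence alone.

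Other female-biased genes that were on in both kinds of tumor did not differ in this way. Cyp2b9 read 12.24, 12.02 and 12.14 in low-LET HCC and 12.04, 12.03, 11.66 and 11.92 in spontaneous HCC, against a mean of 6.11 in sham livers. Akr1c18 read 11.57, 12.22 and 11.68 in low-LET HCC and 11.52, 11.73, 10.84 and 10.82 in spontaneous HCC, against 5.83 in sham livers. Both genes were thus far above male liver in all 7 tumors, with differences of 0.22 ± 0.11 and 0.60 ± 0.28. A1bg was high in spontaneous HCC 1 and 2 (12.43 and 9.31) and between 5.86 and 7.84 in the other 5 tumors.

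The tumor difference was also tested against the difference between low-LET non-HCC and sham livers, in 1 limma fit of the 17 arrays with 4 groups. The low-LET groups were not matched in dose, at 2, 2 and 3 Gy in the HCC and 7, 5, 3 and 6 Gy in the livers. This interaction was called for 9 of 29076 probes (0.031%), 6 higher and 3 lower in low-LET HCC. They were 2 probes of Mup2 (6.10 and 4.47, adjusted p = 0.00803 and 0.0237), Cux2 (-1.52, 0.00407), Ildr2 (-2.17, 0.0181), the unnamed probe ILMN_1251419 (-5.90, 0.0266), Keg1 (1.34, 0.0729), Cldn12 (0.59, 0.0729), Mup21 (2.76, 0.0919) and Cyp4a12a (3.47, 0.0992). Of these, Mup21 and Cyp4a12a were on the male-biased list and Cux2 on the female-biased list. Keg1, an acyltransferase-like gene of liver and kidney, averaged 11.18 ± 0.33 in low-LET HCC (SD), against 10.17 ± 0.34 in spontaneous HCC, and 12.62 ± 0.08 in low-LET non-HCC liver and 12.95 ± 0.14 in sham liver. This fit borrows its estimate of spread from 10 livers, whose replicates lay close together. With BeadChip as a fixed block in all 34 arrays every one of the 9 kept its direction with an adjusted p of 1, and that fit called 1 other probe. The unblocked fit of all 34 arrays, which includes the high-LET groups, called 0 probes. Without spontaneous HCC 2 the count was 45, and without low-LET HCC 1, 2 and 3 it was 29, 15 and 28. It was 5 without each of 7 livers, low-LET non-HCC livers 1, 3 and 4 and sham livers 2, 4, 5 and 6.

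**Figure D4:**
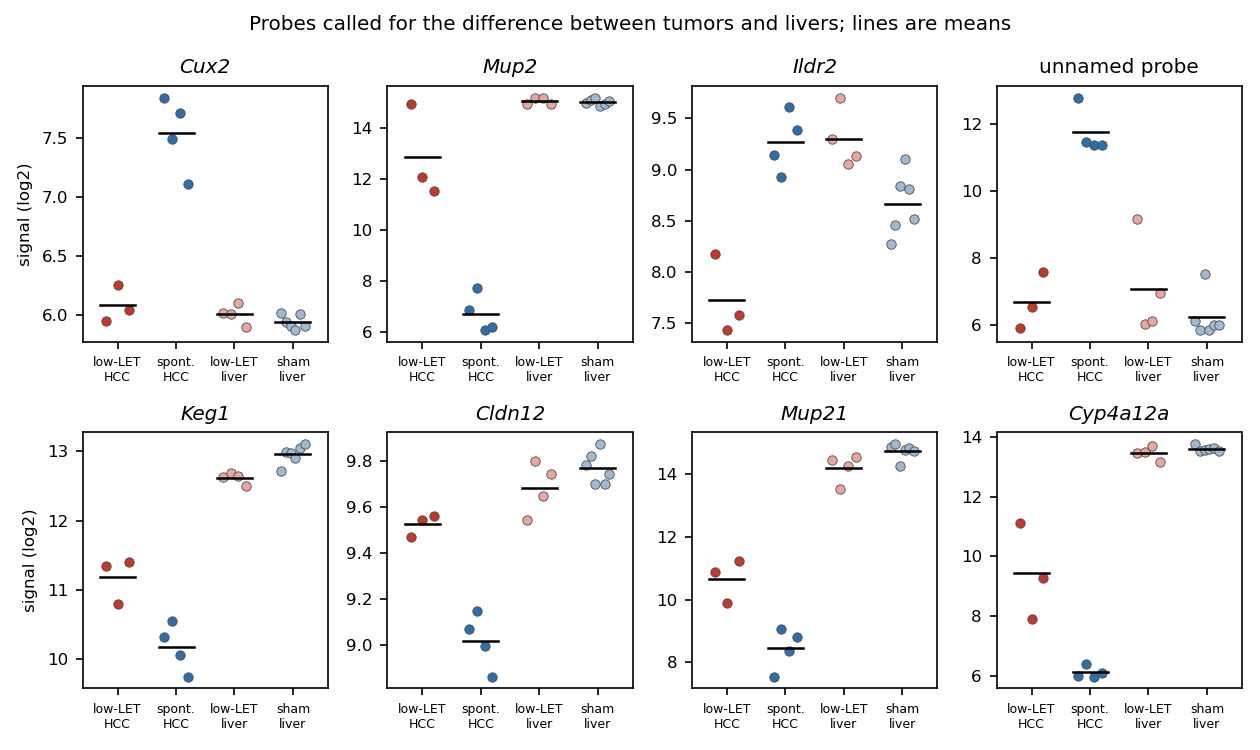
Log2 signal in each low-LET HCC (n = 3), spontaneous HCC (n = 4), low-LET non-HCC liver (n = 4) and sham liver (n = 6), with lines at group means, for the 8 genes or probes called for the interaction (1 of the 2 Mup2 probes is drawn). In Mup2, Mup21 and Cyp4a12a the means of low-LET HCC lie between those of the spontaneous HCC and the livers.

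The imprinted growth factor Igf2 separated the spontaneous HCC among themselves. It read 6.38, 6.43 and 6.39 in low-LET HCC and 14.51, 6.13, 13.19 and 11.85 in spontaneous HCC, against a mean of 6.35 in sham livers. Thus 3 of 4 spontaneous HCC were high and spontaneous HCC 2 and all low-LET HCC were at the level of normal liver. High-LET HCC also stayed between 6.13 and 6.83. The difference of -5.02 ± 1.88 did not pass (adjusted p = 1.00), but it was called in the fit of all 34 arrays (adjusted p = 0.054). With BeadChip as a fixed block in the same arrays the difference was -5.24 and the call was lost (adjusted p = 0.901). Cdkn1c, an imprinted inhibitor of the cell cycle, read 7.44, 7.84 and 7.83 in low-LET HCC and 9.15, 8.39, 8.28 and 8.78 in spontaneous HCC (difference -0.95 ± 0.23). It was the only imprinted growth gene of 11 measured whose groups did not overlap (9.09%), beside 2.56% of all genes below without overlap. Of the oncofetal and HCC marker genes, 0 of 21 were above and 0 below without overlap. Afp, the fetal serum protein α-fetoprotein, read 6.87, 7.99 and 7.32 in low-LET HCC and 9.72, 6.86, 7.00 and 6.52 in spontaneous HCC. Lcn2, an iron-binding acute-phase protein, read 14.27, 14.15 and 12.83 in low-LET HCC and 13.86, 14.06, 13.90 and 13.50 in spontaneous HCC, against 8.18 in sham livers.

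Cell cycle genes leaned to the low-LET HCC. Of 20 measured, 19 differences were positive, beside 5961 of 13048 over all genes with 1 probe each. The list's median was 0.22 and ran between 0.04, with BeadChip as a fixed block in the 14 HCC, and 0.70, with the deposited values. In 3 genes (15%) every low-LET HCC lay above every spontaneous HCC and in 0 below, beside 2.26% and 2.56% of all genes. Birc5, the survivin gene of the mitotic spindle, read 7.52, 6.96 and 7.41 in low-LET HCC and 6.63, 6.92, 6.72 and 6.35 in spontaneous HCC (difference 0.64 ± 0.18). Cdk1, the mitotic kinase, differed by 0.20 ± 0.08 and Bub1b, a checkpoint kinase, by 0.14 ± 0.06, both at signals under 6.50. The list's mean signal was 7.02, 7.02 and 7.36 in low-LET HCC and 6.90, 6.97, 6.82 and 6.66 in spontaneous HCC, so the highest was low-LET HCC 3. DNA replication genes gave 0 of 23 in either direction.

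Ribosomal protein genes leaned the other way. All 25 measured were lower on average in low-LET HCC, with a median of -0.24 (-0.32 to -0.15 over the alternatives). Over all genes with 1 probe each, 5961 of 13048 differences were positive. In 3 of the 25 (12%), Rps2, Rps15 and Rps12, every low-LET HCC lay below every spontaneous HCC, beside 2.56% of all genes. Rps15 read 11.19, 11.55 and 11.45 in low-LET HCC and 11.79, 11.71, 12.18 and 12.04 in spontaneous HCC, and Rps2 read 14.10, 13.98 and 14.11 in low-LET HCC and 14.43, 14.31, 14.34 and 14.41 in spontaneous HCC. Spontaneous HCC 2 had the lowest list mean of its group, at 12.15, within the range of the low-LET HCC (12.04 to 12.31).

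Oxidative phosphorylation genes were divided. Of 30 measured, 6 (20%) had every low-LET HCC above every spontaneous HCC and 1 (3.33%) below, while the median was -0.02. Over all genes the shares were 2.26% above and 2.56% below. The 6 were Atp5a1 of the ATP synthase, Ndufb5 and Ndufb9 of complex I, Sdhd of complex II, and Cox7a2 and Cox6c of complex IV, with differences between 0.31 and 0.86. Atp5a1 read 8.32, 8.24 and 7.97 in low-LET HCC and 7.24, 7.48, 7.06 and 7.47 in spontaneous HCC, against a mean of 8.52 in sham livers. With BeadChip as a block in the 14 HCC the differences of Atp5a1 and Cox7a2 were 0.04 and -0.25.

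**Figure D5:**
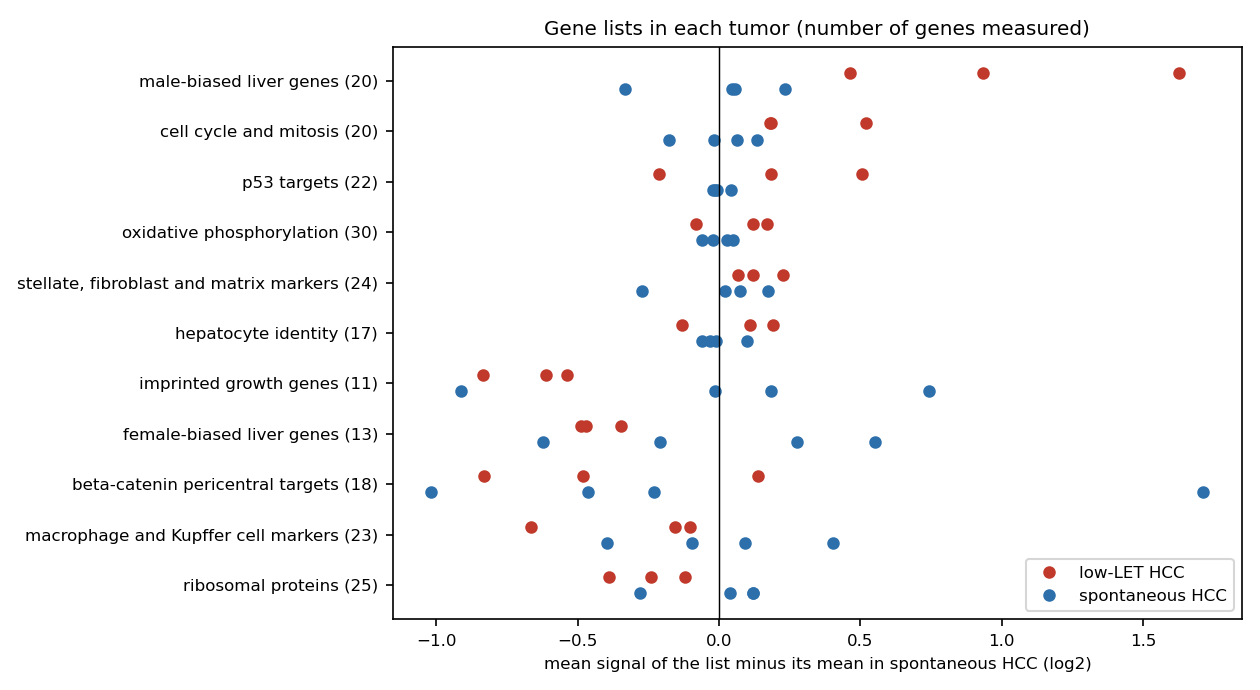
Mean log2 signal of each of 11 gene lists in each tumor, minus the mean of the list over the spontaneous HCC, with low-LET HCC in red, spontaneous HCC in blue and the number of genes measured in parentheses. The low-LET HCC lie above all spontaneous HCC only for male-biased and cell cycle genes among these lists, and spontaneous HCC 1 lies apart for the pericentral genes.

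Few genes of the radiation and damage response were without overlap. Of 22 p53 targets measured, 16 differences were positive. In 2 (9.09%) every low-LET HCC lay above and in 0 below, beside 2.26% and 2.56% of all genes. The 2 were Fas, a death receptor, and Gtse1, a G2 regulator. Fas read 8.66, 8.89 and 8.61 in low-LET HCC and 8.02, 8.41, 7.86 and 8.21 in spontaneous HCC (difference 0.60 ± 0.15), against 9.09 in sham livers. Gtse1 read 6.72, 7.80 and 7.19 in low-LET HCC and 6.58, 6.61, 6.32 and 6.25 in spontaneous HCC (difference 0.80 ± 0.25). The median of the p53 targets was 0.12. It ran between -0.07 and 0.38 over the alternatives, the highest with BeadChip as a fixed block in the 14 HCC. Double-strand break repair genes gave 0 of 21 in either direction, with a median of 0.01. The list of AP-1 and other immediate early genes gave 1 of 16 above (6.25%) and 0 below. That gene was Egr1, at 12.68, 12.71 and 12.86 in low-LET HCC and 11.62, 12.66, 12.45 and 11.69 in spontaneous HCC. Fos read 7.12, 7.92 and 9.20 in low-LET HCC and 7.33, 7.09, 7.15 and 7.05 in spontaneous HCC, with low-LET HCC 3 the highest. Prkca, a protein kinase C, read 9.49, 9.26 and 8.83 in low-LET HCC and 8.46, 9.41, 10.03 and 9.39 in spontaneous HCC.

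The β-catenin targets of the pericentral zone showed a difference between single tumors. Of 18 measured, 16 were lower on average in low-LET HCC, with a median of -0.45. Only Tnfrsf19 (5.56%) did not overlap, beside 2.56% of all genes below without overlap. Axin2, a feedback inhibitor of the pathway, read 6.75, 6.27 and 6.13 in low-LET HCC and 9.41, 6.25, 6.13 and 6.33 in spontaneous HCC. Lgr5, a receptor of the Wnt pathway, read 6.16, 6.18 and 6.57 in low-LET HCC and 8.11, 6.06, 5.95 and 6.15 in spontaneous HCC. Oat, ornithine aminotransferase, read 10.84, 8.94 and 7.79 in low-LET HCC and 13.72, 9.86, 7.31 and 9.89 in spontaneous HCC. Spontaneous HCC 1 was the high tumor in each, and without it the median of the list was 0.16. The same tumor was the only one high in Dlk1, a fetal liver gene, at 10.50 against 5.93 to 6.36 in the others.

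Of the other lists, neutrophil and granulocyte genes gave 2 of 14 above (14.3%), Fcnb (0.13 ± 0.06) and Csf3r (0.36 ± 0.19), and 0 below. Over all genes the shares without overlap were 2.26% above and 2.56% below. Fcnb read 6.07 to 6.19 in low-LET HCC and 5.97 to 6.02 in spontaneous HCC, near the background limit of 6.01 to 6.07. It was above background in 3 low-LET HCC and 0 spontaneous HCC, so it passed the filter through the low-LET HCC alone. The list's median was 0.26 and ran between -0.08 and 0.84 over the alternatives. Macrophage and Kupffer cell genes had a median of -0.28, with 19 of 23 lower on average in low-LET HCC and 2 (8.7%) without overlap, C1qa and C1qb. C1qa, a complement C1q chain made by macrophages, read 8.26, 8.28 and 7.32 in low-LET HCC and 8.54, 8.79, 8.56 and 9.17 in spontaneous HCC. C1qb read 9.73, 9.65 and 8.27 in low-LET HCC and 9.82, 9.91, 9.83 and 10.73 in spontaneous HCC. Low-LET HCC 3 was the lowest tumor for both. The 4 macrophage markers overlapped between groups, with a difference of -0.091 (two-sided exact permutation p = 0.914). Among these markers Clec4f averaged higher in low-LET HCC (8.785 against 8.321), and Adgre1, Csf1r and Vsig4 averaged lower. Stellate cell and matrix genes gave 2 of 24 above (8.33%), Col1a1 (0.58 ± 0.16) and Col5a1 (0.53 ± 0.14), both collagen genes, the second of which turned to -0.37 with BeadChip as a block in the 14 HCC. Iron genes gave 2 of 19 above and 2 below (10.5% each). Fth1, the ferritin heavy chain, was among the lower genes at -0.28 ± 0.08. Ftl1, the light chain, was among the higher ones at 0.47 ± 0.17 and turned to -0.22 and -0.25 with BeadChip as a block. Coagulation, hypoxia, heat shock, bile acid, glycolysis, cholesterol synthesis and endothelial genes gave 0 in either direction. Hepatocyte identity genes also gave 0 of 17, with a median of 0.03.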

How the data were processed

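Total RNA of mouse liver tumors and livers was hybridized to Illumina mouse BeadChips, 1 array per sample, and 34 arrays on 8 BeadChips were read. The deposited bead intensities, summarized in GenomicStudio 3.0 by the authors, still held background and were not normalized. The deposited normalized table held log2 values that the authors had background-subtracted with MBCB and quantile-normalized. It was used as an alternative, with a rank correlation to the intensities of 0.999968 to 1 per array. Genome build and probe annotation version were not given in the sources used here. Probe genes came from the GEO platform annotation: of 45281 probes, 34885 had 1 gene, 18 several and 10378 none.

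Intensities were corrected by normexp (offset 50), quantile-normalized over all 34 arrays and taken to log2. Probes above a per-array background limit (mode plus 1.645 SD of the lower side) on at least 3 of the 7 tumors were kept, 25741 in all. Groups came from the radiation and pathology labels. limma 3.58.1 (R 4.3.3) fitted the 7 tumors, and a probe was called if its p, adjusted by Benjamini and Hochberg, was under 0.1 and its fold change exceeded 1.3. Every adjusted p in the text is from limma. The study's methods used a two-way model of pathology and radiation with an interaction term over all groups. Here the interaction was fitted to the 17 low-LET and non-irradiated arrays, with the same call rule as for the tumors, and all 34 arrays were an alternative. Labels do not say whether each array came from a separate animal, so p-values measure the spread between these samples, and the number of arrays limits the precision.

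Genes were named by these rules: where fewer than 10 genes were called in a direction, the genes with the smallest p up to 10, given as not passing; the 5 probes with the smallest p; up to 3 members of each of 51 lists (1031 of 1134 genes found on the array) by smallest p; and Gpc3, Afp, Igf2, H19, Lcn2, Cyp2b9, Elovl3, Mup20, Fos and Prkca for level. Each list gene was read from its brightest probe over the 7 tumors. H19 was not matched to a probe and Elovl3 did not pass the filter. Keg1 was named from the interaction calls. Of the other genes, Mup3, Mup6, Hsd3b5, Nudt7, Bcl6, A1bg, Axin2, Lgr5, Oat, Dlk1, Cps1, Plg, Cyp3a11, Hspa1a, Atf3, Cst6, and the oxidative phosphorylation and ribosomal genes past the first 3 of their lists were chosen after their values were seen. The members and the lists were chosen with earlier results of these data known. Promoter sequences are from RefSeq, GRCm38.p6. Alternatives changed the values used, background correction, normalization, filter, samples in the fit, BeadChip block, array weights, test, thresholds and single arrays.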

Additional observations from a re-analysis of the deposited data

Results flagged for a closer look

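Among the 4 spontaneous HCC, 1 tumor stood far from the other 3 in 6 of 59 genes and 3 of 51 gene lists, by a gap over the group's range above Dixon's 95% critical value for 4 samples. Chance alone flags about 1 in 20 groups, or 5%. The lone tumor was spontaneous HCC 1, the highest, for the unnamed probe ILMN_1251419 (12.77, gap over range 0.942), Rhbg, a pericentral ammonia transporter (9.23, 0.917), Afp (9.72, 0.851) and the EGF and ERK feedback list (mean 8.12, 0.968). It was spontaneous HCC 2 for Rpl35, lowest at 13.03 (0.871), and for the nuclear receptor list, highest at 8.77 (0.842). Spontaneous HCC 3 was lowest for Emp2 (8.45, 0.890) and for the iron and metal handling list (10.07, 0.897), and spontaneous HCC 4 was highest for C1qb, a macrophage complement gene (10.73, 0.903). Low-LET HCC, with 3 tumors, were not tested in this way.

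The difference between low-LET and spontaneous HCC, minus that between low-LET non-HCC and sham livers, passed the limma interaction test for 9 probes of 8 genes or unnamed probes. It was 6.10 and 4.47 (log2) for the Mup2 probes, 3.47 for Cyp4a12a, 2.76 for Mup21, 1.34 for Keg1 and 0.59 for Cldn12 on the higher side, and -5.90 for ILMN_1251419, -2.17 for Ildr2 and -1.52 for Cux2 on the lower side. With BeadChip as a fixed block in all 34 arrays the values were 5.76 and 3.84 for Mup2, 2.83 for Cyp4a12a, 2.60 for Mup21, 1.31 for Keg1, 0.50 for Cldn12, -5.43 for ILMN_1251419, -1.71 for Ildr2 and -0.96 for Cux2, each with an adjusted p of 1.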

How the results depend on the processing

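The count of 0 probes called higher and 0 lower in low-LET HCC was the same without background correction, with median scaling, with normalization over the tumors alone, with either other filter, in the fit of 14 HCC, with BeadChip as a fixed or random block there, by the ordinary linear model and at the other thresholds. It became 1 higher and 1 lower with the deposited values (Mup2 and Cux2), 6 and 5 in the fit of all 34 arrays, 1 and 1 (Cst6 and Emp2) with BeadChip as a fixed block there, 3 and 1 with array weights, and 0 and 1 with an intensity trend and robust variance. Among alternatives chosen after seeing the data, it became 15 higher and 8 lower in the fit of the 17 low-LET and non-irradiated arrays, and 2 and 3 with BeadChip as a random block in all 34 arrays. Leaving out single tumors gave 0 to 2 higher (2 without low-LET HCC 1, probes of Mup2 and Mup6) and 0 lower. A random BeadChip block could not be fitted to the 7 tumors, since 1 chip held 2 of them.

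The excess of correlation within groups was -4.535e-05 with the deposited values and -0.0004767 by Spearman correlation, and -0.005045 to 0.006207 without single tumors. Spontaneous HCC against sham liver gave 7656 calls with the deposited values and low-LET non-HCC liver against sham liver 2. The interaction gave 0 calls in the fit of all 34 arrays, 1 with BeadChip as a fixed block there and 5 to 45 without single arrays; it was 5 without each of 7 of the 10 livers, and low-LET HCC 1, 2 and 3 and spontaneous HCC 2 each raised it when left out. The cause of these shifts was not tested.

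With BeadChip as a fixed block in the 14 HCC, spontaneous HCC 2 and 3 were alone on chip 6 and did not bear on the difference. Of 59 genes, 18 reversed in that fit, whose median SE was 0.221 against 0.119 in the main fit. These were Abcd3 (-0.184), Abhd17c (-0.0301), Akr1c18 (-0.358), C8a (-0.0879), Cdk1 (-0.19), Col5a1 (-0.374), Cox7a2 (-0.251), Cux2 (0.921), Cyp4a12a (-0.365), Ftl1 (-0.224), Gjb2 (-0.137), Ildr2 (0.175), Lcn2 (0.570), Mup20 (-0.678), Prkca (0.275), Tor1a (-0.125), Ugt2b1 (-0.0565) and Vps29 (-0.158). In all 34 arrays the same block reversed Ftl1 (-0.254), Lcn2 (0.128), Prkca (0.0828) and Vapa (-0.0015), and a random block Lcn2 (0.00675). Array weights reversed Afp (0.236) and Lcn2 (0.280), and the deposited values Afp (0.0955). Without single tumors Afp ran between -0.467 and 0.5996, Lcn2 between -0.3404 and 0.3805 and Prkca between -0.417 and 0.1043. No paired analysis was possible because the replicate numbers were given in accession order and pair no samples.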
